A study of Mus musculus with 6 samples.

Results

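The FXYD regulators and the beta subunits of the sodium pump were followed in thymic tuft cells, the chemosensory epithelial cells of the mouse thymus. The set holds 9 of the 55471 genes in the expression table, taken by symbol. They are Fxyd1 to Fxyd7 and the pump genes Atp1b1 and Atp1b3, and all 9 had exactly 1 matching Ensembl identifier. The cells were sorted on the surface protein L1CAM, and their RNA was sequenced after a SMART-seq lysis. The labels describe 3 samples from mice positive for Foxn1-Cre, with the genotype given as KO, and 3 samples from mice negative for Foxn1-Cre, given as WT. All 6 had Ikzf1 floxed, which encodes Ikaros, a zinc finger transcription factor of lymphoid cells, so the Cre-negative controls were not plain wild-type mice. Foxn1 drives Cre in thymic epithelium, so blood cells and other stroma of the Cre-positive mice were not a target of the deletion. The age and sex of the mice, the deleted part of Ikzf1 and any pooling of animals were details not given in the sources used here. Columns of the table are named Ko1 to Ko3 and Het1 to Het3. Ko was taken to be the Cre-positive group. Het, a word that the labels lack, was taken to be the remaining Cre-negative group.

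The sodium pump, or sodium, potassium-ATPase, moves sodium out of the cell and potassium into it at the cost of ATP. A catalytic alpha subunit carries the ions, a glycosylated beta subunit brings the complex to the membrane, and a small single-span FXYD protein may join it and shift its ion affinities or its rate. The gradient that the pump builds feeds sodium-coupled transporters and the sodium entry that depolarizes excitable and sensory cells. In tuft cells a taste-like cascade opens Trpm5, a channel that lets monovalent cations in.

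The targeted gene went against its label. Ikzf1 stood at 1572, 1463 and 1717 normalized counts in Ko1, Ko2 and Ko3, against 301, 187 and 273 in Het1, Het2 and Het3, and gene-level counts cannot tell if 1 part of the gene was missing. Directions are therefore between libraries as they are labelled. Library totals ran from 12238428 to 17140843 recovered reads in the libraries labelled Ko and from 12429260 to 31435787 in Het libraries, and the table gives normalized counts, which are reads divided by 1 size factor per library. Summed markers of tuft cells, with all 16 detected in both groups, lay between 234278 and 289988 normalized counts in the libraries labelled Ko and between 169659 and 228121 in Het libraries. That gap rested on Rgs13, a regulator of G protein signalling, and without it the sums overlapped, at 166199 to 191928 in the libraries labelled Ko and 137502 to 193551 in Het libraries. Gnb3 and Gng13, which encode subunits of the taste G protein, were lower in every library labelled Ko. Rgs13 and Ltc4s were higher in every library labelled Ko, and the other tuft markers overlapped. Ltc4s was at 7202, 7307 and 8918 in Ko1, Ko2 and Ko3, against 6489, 5988 and 5567 in Het1, Het2 and Het3. The labels do not tie the libraries to separate animals, so errors measure the spread between these samples. In bulk RNA, fewer cells of a type and less RNA per cell cannot be told apart.

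The members were chosen by normalized counts in these same libraries, Fxyd7 for its difference between the groups and the others as its relatives. Their differences between the groups are therefore a description with no test. Among all 19416 genes with a mean of at least 10 normalized counts, 0.814% were called at an adjusted p under 0.05 by limma. Of all genes, 56 (0.288%) were called higher and 102 (0.525%) lower in the libraries labelled Ko (37 and 122 after TMM rescaling). All 9 members passed the filter on the mean. The fit called 1 of the 9, Fxyd7. In 18.4% of all genes tested the groups did not overlap (8.57% higher and 9.86% lower), and in 4 of the 9 members they did not. Fxyd7 and Fxyd1 were higher in every library labelled Ko, and Fxyd3 and Fxyd4 lower. Nothing is read from these counts, since the choice of members used the same contrast. The median log2 fold change was -0.25 over the 9 members and -0.05 over all genes tested.

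Fxyd1 lies next to Fxyd7 and shared its direction, while Fxyd4 and Fxyd3 had the opposite one, so the 250 bases before the annotated start of these 3 genes are shown in RefSeq's sequence on the build GRCm38.p6. Entries matched 7 of the 9 members, all but Fxyd7 and Fxyd2. Capitals mark GGGAA, the core to which Ikaros proteins bind, or its reverse complement TTCCC.
Fxyd1 (chr7:31054854-31055103, minus strand): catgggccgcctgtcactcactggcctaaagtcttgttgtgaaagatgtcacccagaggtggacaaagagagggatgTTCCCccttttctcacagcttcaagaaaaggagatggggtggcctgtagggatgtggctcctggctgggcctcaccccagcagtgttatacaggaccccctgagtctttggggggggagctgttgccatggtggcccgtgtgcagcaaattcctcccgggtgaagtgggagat
Fxyd4 (chr6:117937336-117937585, minus strand): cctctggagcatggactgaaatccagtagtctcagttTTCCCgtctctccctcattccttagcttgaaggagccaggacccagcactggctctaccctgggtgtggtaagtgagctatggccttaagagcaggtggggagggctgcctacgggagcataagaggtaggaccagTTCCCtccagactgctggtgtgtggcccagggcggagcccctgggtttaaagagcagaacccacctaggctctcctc
Fxyd3 (chr7:31076698-31076947, minus strand): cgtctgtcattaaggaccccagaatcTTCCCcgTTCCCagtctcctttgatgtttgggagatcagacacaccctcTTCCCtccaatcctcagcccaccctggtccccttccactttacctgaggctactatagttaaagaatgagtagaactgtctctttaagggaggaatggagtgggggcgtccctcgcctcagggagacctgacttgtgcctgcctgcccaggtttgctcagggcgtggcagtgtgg
The core was found 1 time in the window of Fxyd1, 2 times in that of Fxyd4 and 3 times in that of Fxyd3, on both strands together. Among members whose groups overlapped, the core was found 5 times in the window of Fxyd5, 2 times in 1 of the 2 windows of Atp1b3 and 0 times in those of Fxyd6 and Atp1b1. Of all 32851 windows of this length in the table, 56.2% held it, so its presence is common. The octamer ATGCAAAT, the motif of POU2F factors such as the tuft cell regulator Pou2f3, was in none of the 3 windows and in 1.60% of all windows.

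Fxyd7 encodes a regulator that is best known from brain, where in rodents it binds pumps that carry the beta1 subunit and lowers their apparent affinity for potassium. It stood at 445, 519 and 453 normalized counts in Ko1, Ko2 and Ko3, against 1.12, 1.42 and 0 in Het1, Het2 and Het3. These values rested on 1250 reads in the libraries labelled Ko and 4 reads in Het libraries. Every library labelled Ko was therefore far above every Het library, where the gene was near or at 0, and the groups did not overlap. The ratio of the groups' read rates was 461, with a 95% interval from 180 to 1695 (counting error alone). Fxyd7's log2 fold change was 8.10 ± 1.01 (SE), on the log2(value + 1) scale, which understates changes of a gene this low in 1 group. Within the libraries labelled Ko it was among the steadiest members, with an SD of 8.58% of the mean. Leaving out Ko2, Ko3 or Het3 ended limma's call of Fxyd7, with log2 fold changes of 7.70 to 8.34 over the 6 fits that left out 1 library. The authors' deposited table gives a log2 fold change of 8.86 for Fxyd7.

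**Figure D1:**
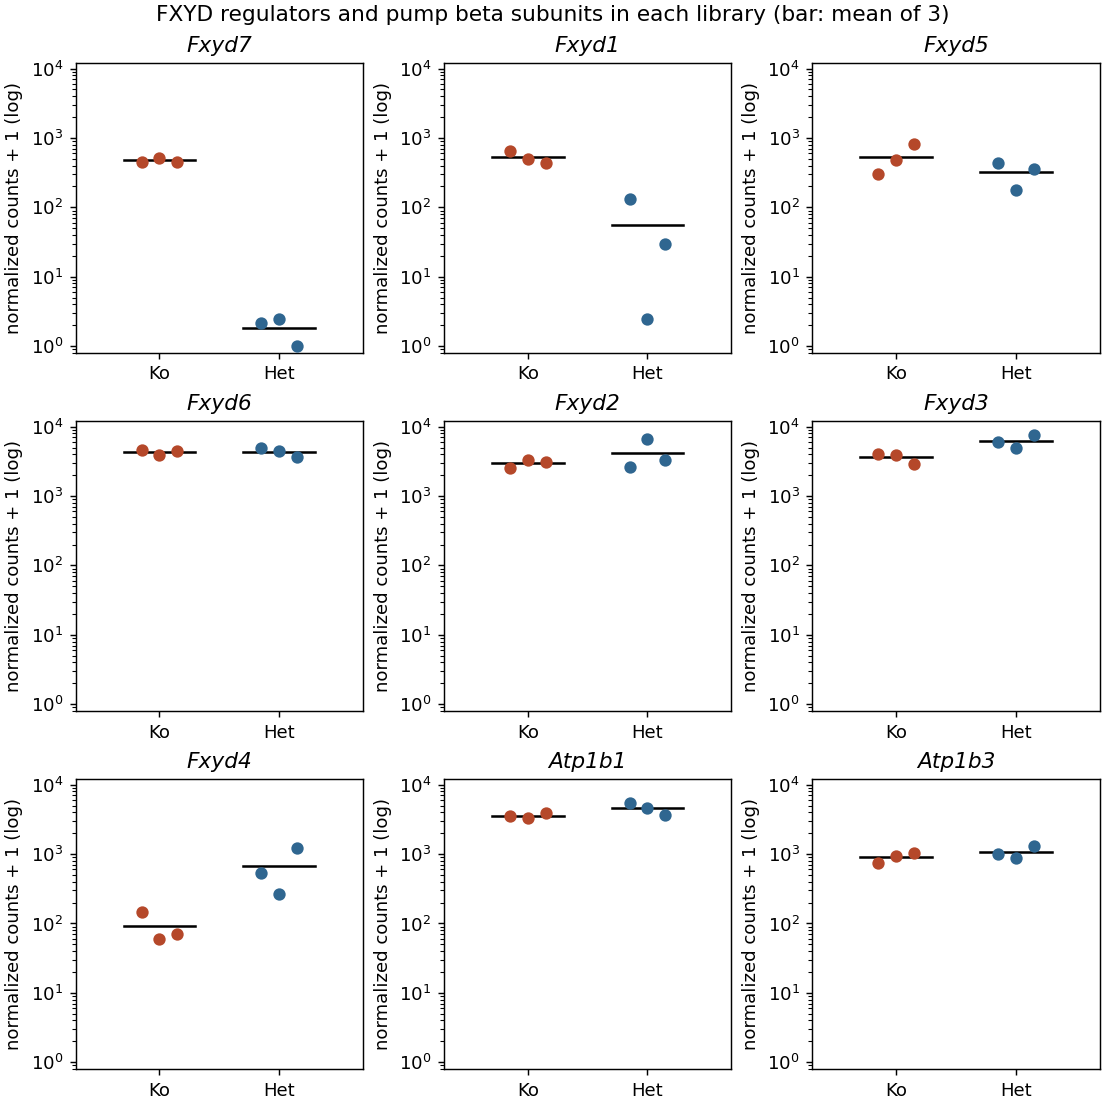
Normalized counts plus 1, on a log axis, of the 9 genes in each library, with Ko libraries in red on the left and Het libraries in blue on the right of each panel, libraries 1 to 3 from left to right and a bar at the mean of 3. Fxyd7 and Fxyd1 lie higher in all Ko libraries, Fxyd3 and Fxyd4 lower, and the other 5 genes overlap.

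Fxyd1 encodes phospholemman, the pump regulator of heart and skeletal muscle, which restrains the pump until a kinase phosphorylates it. It stood at 640, 503 and 431 normalized counts in Ko1, Ko2 and Ko3, against 132, 1.42 and 28.9 in Het1, Het2 and Het3. The groups did not overlap, and the Het libraries were far from uniform, with Het1 well above Het2 and Het3. The log2 fold change was 4.61 ± 1.22 (SE), and the SD in Het libraries was 127% of the mean, the highest of any member in either group. Without Het1 the log2 fold change was 5.93, and without Het2 it was 3.04. In Ko libraries the SD of Fxyd1 was 20.2% of the mean.

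Fxyd4 encodes the channel-inducing factor of kidney and colon epithelium, which raises the pump's affinity for sodium. It was at 145, 59.0 and 70.2 normalized counts in Ko1, Ko2 and Ko3, against 532, 269 and 1238 in Het1, Het2 and Het3. All 3 libraries labelled Ko were below all 3 Het libraries, although Het libraries differed 4.60-fold among themselves. The log2 fold change was -2.72 ± 0.63 (SE).

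Fxyd3, a regulator of epithelia such as stomach and colon, was abundant in both groups. Its values were 4085, 3906 and 2872 normalized counts in Ko1, Ko2 and Ko3, against 6098, 4854 and 7474 in Het1, Het2 and Het3. The groups did not overlap, but the difference was small beside those of Fxyd7 and Fxyd4, with a log2 fold change of -0.76 ± 0.21 (SE). In the GENCODE M21 annotation, 2059 exonic bases of Fxyd3 overlap exons of Lgi4 on the other strand. Lgi4 itself stood at 2.06, 2.07 and 2.86 normalized counts in Ko1, Ko2 and Ko3, against 3.92, 7.81 and 0 in Het1, Het2 and Het3. Strand use in the counting is not given, so reads of this stretch cannot be told apart.

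The authors' deposited table calls 3 of the 9 members at its adjusted p under 0.05, against 8.29% of the same 19416 genes. These are Fxyd7, Fxyd1 (log2 fold change 3.27) and Fxyd4 (-2.89). DESeq2 on the recovered reads calls these 3 and Fxyd3, against 5.93% of all genes, while edgeR calls Fxyd7 alone, against 0.386%.

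The other FXYD genes overlapped between the groups. Fxyd6, a regulator found in brain and inner ear, was the steadiest of these, at 4578, 3964 and 4410 normalized counts in Ko1, Ko2 and Ko3, against 4889, 4400 and 3668 in Het1, Het2 and Het3. Its log2 fold change was 0.01 ± 0.17 (SE), and the sign turned under 4 of 12 alternatives, among them TMM rescaling. Fxyd2, the gamma subunit of the kidney pump, was at 2496, 3348 and 3055 normalized counts in Ko1, Ko2 and Ko3, against 2639, 6535 and 3259 in Het1, Het2 and Het3. Only Het2 stood apart, and without it the log2 fold change of Fxyd2 was 0.01, in place of -0.38 ± 0.30 (SE). Fxyd5, or dysadherin, which also loosens adhesion between epithelial cells, was at 297, 475 and 816 normalized counts in Ko1, Ko2 and Ko3, against 430, 174 and 358 in Het1, Het2 and Het3. Both groups were spread, and the log2 fold change of Fxyd5 was 0.70 ± 0.49 (SE).

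Both beta subunit genes were expressed in all 6 libraries. Atp1b1, the beta subunit of most epithelia, was at 3497, 3259 and 3945 normalized counts in Ko1, Ko2 and Ko3, against 5430, 4663 and 3662 in Het1, Het2 and Het3. Het3 lay among the libraries labelled Ko, so the groups overlapped, with a log2 fold change of -0.35 ± 0.19 (SE). Atp1b3, the beta subunit that is common in blood cells and many other tissues, was at 739, 922 and 1030 normalized counts in Ko1, Ko2 and Ko3, against 998, 889 and 1327 in Het1, Het2 and Het3. Its groups overlapped too, with a log2 fold change of -0.25 ± 0.27 (SE). In the annotation Atp1b1 shares 575 exonic bases with Nme7 on the other strand, so reads there are uncertain.

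Levels were set against each other per kilobase of exon, with the exons of all transcripts of a gene joined in GENCODE M21, a release on GRCm38 and not on the authors' GRCm39. In the libraries labelled Ko the order was Atp1b1 at 1158 ± 113 normalized counts per kilobase, Fxyd6 at 1051 ± 77.4, Fxyd3 at 747 ± 135, Fxyd2 at 741 ± 108, Fxyd7 at 682 ± 58.5, Atp1b3 at 375 ± 61.6, Fxyd1 at 240 ± 48.5, Fxyd5 at 126 ± 62.9 and Fxyd4 at 46.7 ± 23.9 (SD, n = 3). In Het libraries it was Atp1b1 at 1488 ± 288, Fxyd3 at 1266 ± 270, Fxyd6 at 1052 ± 150, Fxyd2 at 1035 ± 523, Atp1b3 at 448 ± 95.6, Fxyd4 at 347 ± 256, Fxyd5 at 76.5 ± 31.5, Fxyd1 at 24.7 ± 31.5 and Fxyd7 at 1.22 ± 1.08 (SD, n = 3). In the libraries labelled Ko, Fxyd3, Fxyd2 and Fxyd7 had overlapping ranges, as did Atp1b1 with Fxyd6 and Fxyd5 with Fxyd4. In Het libraries the ranges of the 4 highest genes each overlapped the next, and so did those of Atp1b3 with Fxyd4, of Fxyd5 with Fxyd1 and of Fxyd1 with Fxyd7. Fxyd7 has only 0.693 kilobases of joined exons, against 1.96 to 4.85 for the other 8 genes, so its level per kilobase depends most on that length.

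Per kilobase of exon, the FXYD pool had overlapping sizes in the groups and a different makeup. Summed per kilobase over the 7 FXYD genes, the pool was 3661, 3729 and 3510 in Ko1, Ko2 and Ko3, against 3543, 3886 and 3979 in Het1, Het2 and Het3, and the groups overlapped. Fxyd7 took 17.6%, 20.1% and 18.6% of the pool in Ko1, Ko2 and Ko3, against 0.0456%, 0.0527% and 0% in Het1, Het2 and Het3. Fxyd1 took 6.60% ± 1.24 of it in the libraries labelled Ko and 0.684% ± 0.897 in Het libraries (SD, n = 3 each). Fxyd3 took 20.5% ± 3.21 and Fxyd4 1.29% ± 0.649 in the libraries labelled Ko, against 33.3% ± 6.75 and 9.04% ± 6.29 in Het libraries (SD, n = 3 each). Fxyd6 held 29.0% ± 2.68 in the libraries labelled Ko and 27.9% ± 5.58 in Het libraries (SD, n = 3 each). These shares restate the levels above on 1 scale and are no separate evidence. Pool size and shares both depend on division by exon length, which weights Fxyd7, with 0.693 kilobases, the most. Before that division Fxyd7 averaged 472 normalized counts in the libraries labelled Ko, against 4317 for Fxyd6. The summed FXYD counts were then lower in every library labelled Ko than in any Het library. Summed per kilobase over Atp1b1, Atp1b2 and Atp1b3, the beta subunits were at 1484, 1476 and 1728 in Ko1, Ko2 and Ko3, against 2181, 1911 and 1766 in Het1, Het2 and Het3. All libraries labelled Ko were below all Het libraries, although Ko3 and Het3 were close. Atp1b1 held 74.1% ± 2.42 of this sum in the libraries labelled Ko and 75.8% ± 7.37 in Het libraries (SD, n = 3 each), with overlapping groups.

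**Figure D2:**
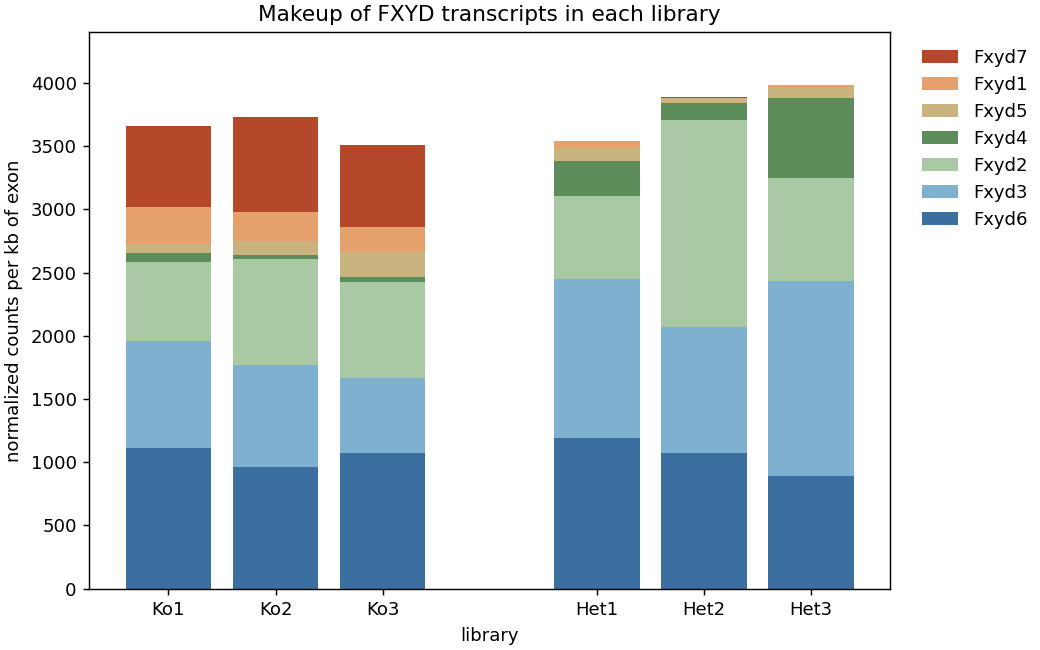
Level of each FXYD gene, in normalized counts per kilobase of exon, stacked for each library, with the 3 Ko libraries on the left and the 3 Het libraries on the right. The whole bars run from 3510 to 3979 in all 6 libraries, and the red block of Fxyd7 makes up 17.6% to 20.1% of the bar in Ko libraries and at most 0.0527% in Het libraries.

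Fxyd7 lies in a cluster of FXYD genes on chromosome 7, so a set of its neighbours was taken by their place and not by their values. In GENCODE M21, on GRCm38, Fxyd5, Fxyd7 and Fxyd1 follow each other on the minus strand, with 31 bases between Fxyd5 and Fxyd7 and 210 bases between Fxyd7 and Fxyd1. On that strand transcription runs from Fxyd1 through Fxyd7 to Fxyd5. Of the 10 genes on each side in a RefSeq gene table, 17 were matched in the expression table and 10 passed the filter on the mean. Besides Fxyd5, Fxyd1 and Fxyd3, 7 genes were tested, and limma called 0 of them (1 higher and 1 lower at an unadjusted p under 0.05, 0 called by edgeR and 2 by DESeq2). The differences of the next genes outward were smaller than those of Fxyd7 and Fxyd1. Hpn, encoding the membrane protease hepsin, averaged 98.1 ± 86.5 normalized counts in the libraries labelled Ko and 91.4 ± 76.6 in Het libraries (SD, n = 3 each). Its log2 fold change was -0.41 (limma adjusted p = 0.930), and the sign turned under 4 of 12 alternatives. Gramd1a, encoding a sterol carrier at contacts of the endoplasmic reticulum, was at 1102, 1267 and 940 in Ko1, Ko2 and Ko3, against 301, 375 and 654 in Het1, Het2 and Het3. Its groups did not overlap, but its log2 fold change of 1.38 ± 0.34 (SE) did not pass (limma adjusted p = 0.111). Hamp, the gene of the iron hormone hepcidin, was at 321, 172 and 172 in Ko1, Ko2 and Ko3, against 510, 1123 and 485 in Het1, Het2 and Het3 (log2 fold change -1.62, limma adjusted p = 0.149). DESeq2's calls were these last 2 genes, Gramd1a and Hamp. Mir7050, inside Fxyd5, was listed at 0 in all 6 libraries. The nearby Gm42377 and Gm38984 were not matched. In Het1, where Fxyd1 stood at 132 normalized counts, Fxyd7 stood at 1.12. Whether reads that run on from Fxyd1 add to the count of Fxyd7 was not tested.

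**Figure D3:**
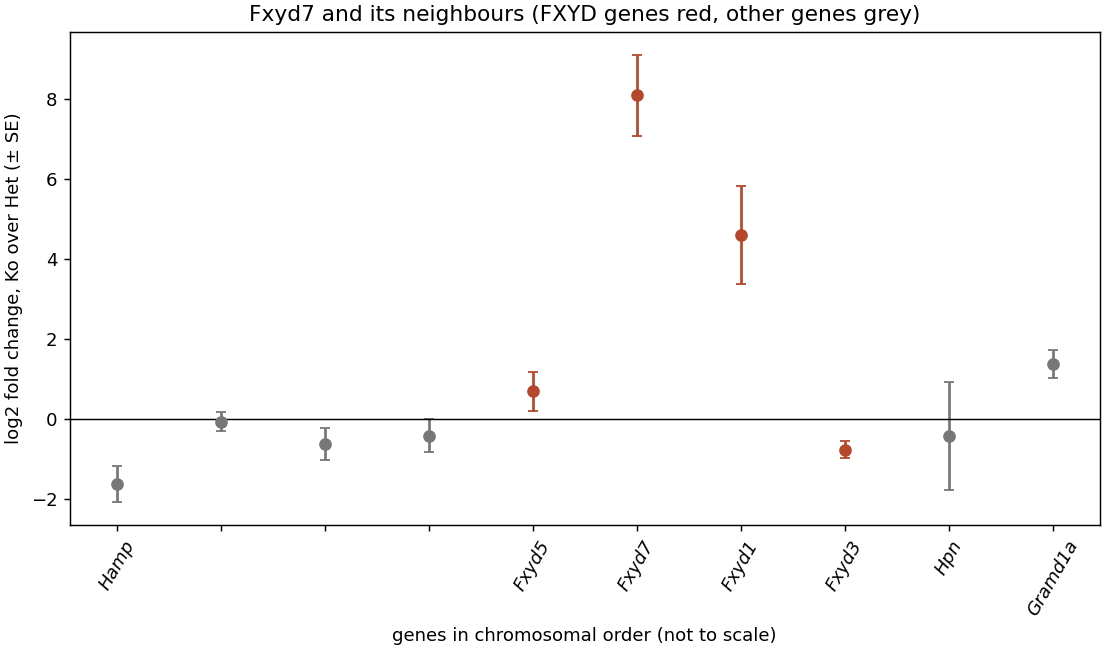
Log2 fold change of Ko over Het libraries, with its SE, for Fxyd7 and 9 of the tested genes around it in chromosomal order, FXYD genes in red and 6 other genes in grey, labelled where the text names them. Fxyd7 (8.10) and Fxyd1 (4.61) stand above their neighbours, which run from -1.62 for Hamp to 1.38 for Gramd1a.

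Among the other members of the pump family, 0 of 7 tested genes were called by limma, with 2 positive and 5 negative log2 fold changes and a median of -0.56 (1 higher and 2 lower at an unadjusted p under 0.05; edgeR called 0 and DESeq2 1). Atp1a4, the catalytic subunit of sperm, was at 90.5, 109.8 and 7.16 normalized counts in Ko1, Ko2 and Ko3, against 33.0, 217 and 34.6 in Het1, Het2 and Het3, with overlap (log2 fold change -0.56, limma adjusted p = 0.893). Atp4a, its counterpart in the gastric proton pump, was at 1602, 2515 and 1882 normalized counts in Ko1, Ko2 and Ko3, against 867, 1272 and 1275 in Het1, Het2 and Het3. It was higher in every library labelled Ko, with a log2 fold change of 0.81 ± 0.26 (SE; limma adjusted p = 0.199). Its beta subunit gene Atp4b was nearly unread, at 1.03, 2.07 and 0 in Ko1, Ko2 and Ko3, against 0.559, 57.5 and 0 in Het1, Het2 and Het3. Atp1b2, the glial beta subunit, was at 161, 132 and 67.3 in Ko1, Ko2 and Ko3, against 3.36, 104 and 88.0 in Het1, Het2 and Het3 (log2 fold change 1.72, limma adjusted p = 0.593), and only Het1 was low.

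Of 16 pump partners and of kinases and ligases that steer sodium transport, 13 were tested and limma called 0, with 8 positive and 5 negative log2 fold changes and a median of 0.09 (1 higher and 0 lower at an unadjusted p under 0.05; 0 called by edgeR and by DESeq2). Nkain4 encodes a membrane protein that binds the pump's beta subunit. It was at 278, 334 and 264 normalized counts in Ko1, Ko2 and Ko3, against 45.3, 0 and 0 in Het1, Het2 and Het3. Ko libraries were tight and all higher, and in Het libraries the reads came from Het1 alone. The log2 fold change of Nkain4 was 6.34 and did not pass (limma adjusted p = 0.0969). Without Het1 it was 8.19 and passed (limma adjusted p = 0.0250; 0.0250 to 0.347 over 12 alternatives). Het1 was also the highest Het library for Fxyd1. The ubiquitin ligase genes Nedd4 and Nedd4l, whose products remove sodium channels from the membrane, were higher in all Ko libraries, with log2 fold changes of 0.37 and 0.48 (limma adjusted p = 0.407 and 0.418). Nkain3, a relative of Nkain4, was near 0 in all libraries but Het3 (log2 fold change -1.66, limma adjusted p = 0.753). Sgk1, a kinase that favours sodium uptake, averaged 2418 ± 1692 in the libraries labelled Ko and 2612 ± 948 in Het libraries (SD, n = 3 each).

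**Figure D4:**
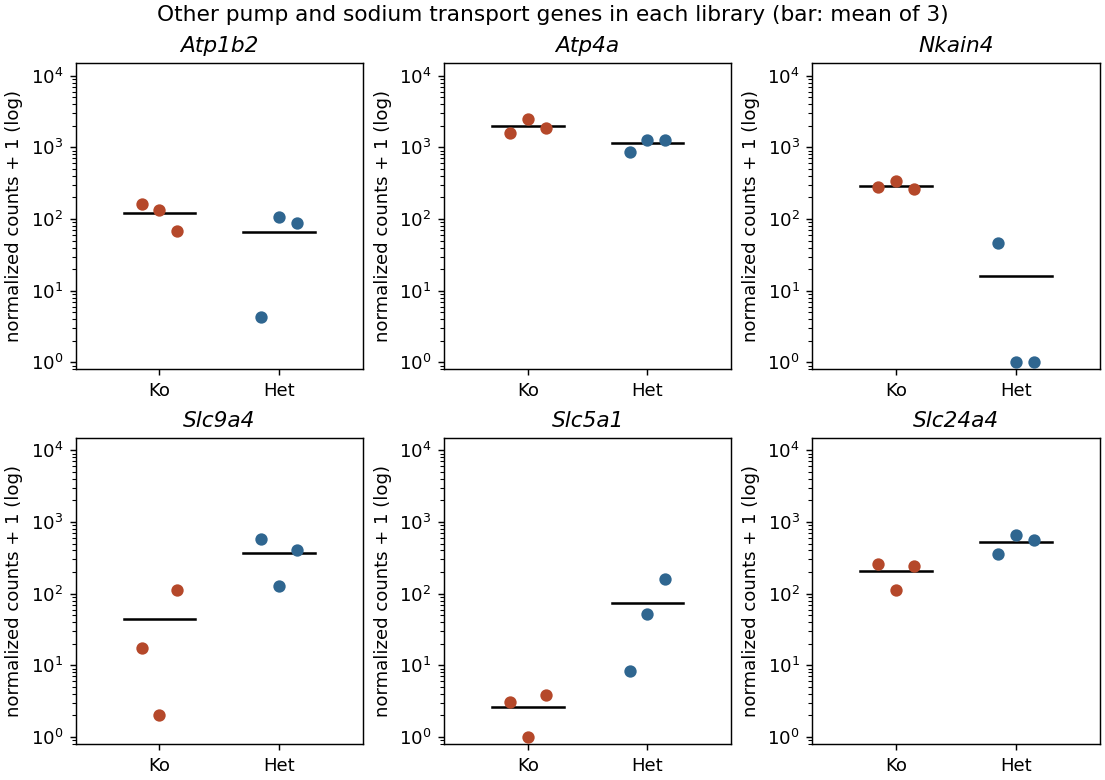
Normalized counts plus 1, on a log axis, of 6 pump and sodium transport genes in each library, Ko in red on the left and Het in blue on the right, libraries 1 to 3 from left to right, with a bar at the mean of 3. Slc9a4, Slc5a1 and Slc24a4 lie lower and Atp4a and Nkain4 higher in all Ko libraries, and Atp1b2 overlaps.

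Transporters that the sodium gradient drives were called in 0 of 24 tested cases by limma, of 29 listed (0 higher and 7 lower at an unadjusted p under 0.05; 0 called by edgeR and 3 by DESeq2). Their log2 fold changes were positive in 9 and negative in 15, with a median of -0.64. Slc9a4, a sodium-proton exchanger of stomach, was at 16.5, 1.04 and 112 normalized counts in Ko1, Ko2 and Ko3, against 571, 126 and 407 in Het1, Het2 and Het3 (log2 fold change -4.29, limma adjusted p = 0.188). Slc5a1, the gut's sodium-glucose transporter, was at 2.06, 0 and 2.86 in Ko1, Ko2 and Ko3, against 7.27, 50.4 and 158.7 in Het1, Het2 and Het3 (log2 fold change -4.16, limma adjusted p = 0.270). These were lower in all Ko libraries, and DESeq2 called both and Slc4a10. Slc24a4, a sodium, calcium and potassium exchanger, was at 258, 113 and 242 in Ko1, Ko2 and Ko3, against 361, 665 and 558 in Het1, Het2 and Het3, without overlap (log2 fold change -1.41, limma adjusted p = 0.213).

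Sodium entry channels were called in 0 of 10 tested genes by limma, of 11 listed (0 at an unadjusted p under 0.05; 0 called by edgeR and by DESeq2). Of these, 2 had positive and 8 negative log2 fold changes, with a median of -1.56. Trpm5 was by far the highest of them, at 18745, 17279 and 19979 normalized counts in Ko1, Ko2 and Ko3, against 17865, 15628 and 11647 in Het1, Het2 and Het3, and the groups overlapped (log2 fold change 0.33, limma adjusted p = 0.407). The epithelial sodium channel gene Scnn1a averaged 447 ± 264 in the libraries labelled Ko and 663 ± 187 in Het libraries (SD, n = 3 each; log2 fold change -0.80, limma adjusted p = 0.576). Of the acid-sensing channel genes, Asic3 was read mainly in Het2 and Het3, and Asic5 mainly in Het3 alone. Asic3 was at 3.09, 3.11 and 0 in Ko1, Ko2 and Ko3, against 2.24, 68.9 and 64.9 in Het1, Het2 and Het3 (log2 fold change -3.26, limma adjusted p = 0.436). Asic5 was at 2.06, 1.04 and 2.86 in Ko1, Ko2 and Ko3, against 1.12, 11.4 and 387 in Het1, Het2 and Het3 (log2 fold change -2.91, limma adjusted p = 0.566).

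Over the 4 lists together, 54 of 65 genes were tested, with a median log2 fold change of -0.40 against -0.05 over all genes. The groups did not overlap for 5 genes that were higher and 6 that were lower in the libraries labelled Ko, against 18.4% of all genes. At an unadjusted p under 0.05 there were 2 higher and 9 lower, against 13.6% of all genes.

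**Figure D5:**
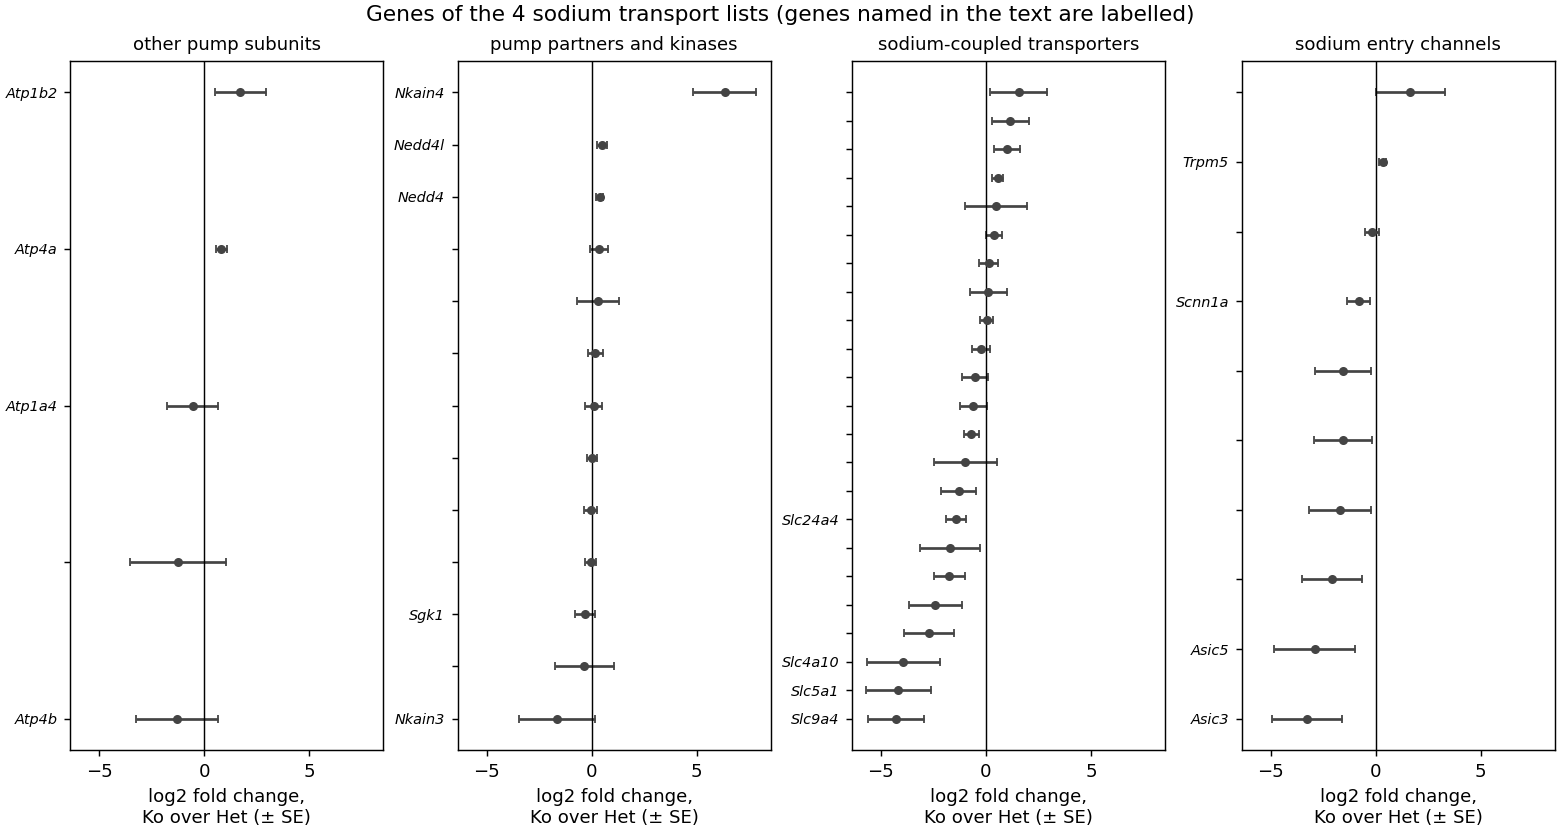
Log2 fold change of Ko over Het libraries, with its SE, for 51 of the 54 tested genes of 4 lists of pump and sodium transport genes, labelled where the text names them. Limma called 0 of them, Nkain4 lies highest at 6.34 and Slc9a4 lowest at -4.29.

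Among 12443 named genes with a mean of at least 50 normalized counts, the patterns most like that of Fxyd7 over the 6 libraries, by Pearson's r of log2(value + 1), were those of Jag2, Hoxa2, Adgrl3, AC154912.3 and C2cd4b, with r from 0.994 to 0.997. Such values follow from any gene that is steady within both groups and higher in 1 of them, and they are given as a description. Jag2, a Notch ligand gene, was at 2023, 1973 and 1948 normalized counts in Ko1, Ko2 and Ko3, against 822, 893 and 684 in Het1, Het2 and Het3. Hoxa2, a homeobox gene, was at 185, 232 and 225 in Ko1, Ko2 and Ko3, against 5.59, 9.94 and 2.89 in Het1, Het2 and Het3. Adgrl3, encoding an adhesion receptor of the latrophilin family, averaged 1095 ± 117 in the libraries labelled Ko and 319 ± 35.0 in Het libraries (SD, n = 3 each). C2cd4b averaged 3817 ± 285 in the libraries labelled Ko and 975 ± 196 in Het libraries, and AC154912.3 averaged 127.5 ± 20.2 in the libraries labelled Ko and 15.3 ± 2.47 in Het libraries (SD, n = 3 each). Hoxa2 was, like Fxyd7, low in every Het library, while Jag2 and Adgrl3 were well expressed in both groups.

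Markers of other cells that carry FXYD genes were read beside the members. In most lists 1 gene held a large share of the sum, so the sums are also given without the most abundant gene. Muscle markers, 6 genes, summed to 1781 to 4747 normalized counts in the libraries labelled Ko and 491 to 3852 in Het libraries. Without Acta1, which stood at 2837 in Het2, they summed to 1593 to 2283 in the libraries labelled Ko and 485 to 1167 in Het libraries, so the groups no longer overlapped. The muscle regulator gene Myog was at 1138, 794 and 1633 in Ko1, Ko2 and Ko3, against 350, 423 and 564 in Het1, Het2 and Het3. Chrna1, a subunit gene of the muscle acetylcholine receptor, was at 509, 684 and 444 in Ko1, Ko2 and Ko3, against 82.2, 246 and 359 in Het1, Het2 and Het3. Both were higher in every library labelled Ko, while the groups overlapped for the other muscle markers, Acta1, Ckm, Des and Myh3. Des was at 15.4, 8.29 and 114.6 in Ko1, Ko2 and Ko3, against 31.9, 277.6 and 115.4 in Het1, Het2 and Het3.

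Neuron markers, 12 genes, summed to 2307 to 3351 in the libraries labelled Ko and 3261 to 4109 in Het libraries, with overlap, and without Syt1 they overlapped too. Of the 12 genes, 3 (Syt1, Stmn3 and Prph) were lower in every library labelled Ko, against 9.86% of all genes tested, and 0 were higher. Prph was at 2.06, 0 and 0 in Ko1, Ko2 and Ko3, against 40.3, 530 and 108 in Het1, Het2 and Het3. Limma called 0 of the 10 tested neuron markers, with a median log2 fold change of -0.80. Glia markers, 10 genes, summed to 1738 to 2964 in the libraries labelled Ko and 3024 to 5103 in Het libraries. Without Aqp4, the glia sums overlapped, at 1549 to 1703 in the libraries labelled Ko and 1469 to 2811 in Het libraries. Limma called 1 of the 7 tested glia markers lower and 0 higher, against 0.525% and 0.288% of all genes tested. Fabp7 was at 1.03, 1.04 and 0 in Ko1, Ko2 and Ko3, against 637, 133 and 159 in Het1, Het2 and Het3. Cdh19 was higher in every library labelled Ko, at no more than 4.14 in any library, and the other glia markers overlapped. Sox10, another gene of the glia list, stood at 1.03, 0 and 4.30 in Ko1, Ko2 and Ko3, against 3.91, 4.97 and 2.89 in Het1, Het2 and Het3.

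Thymocyte markers, 11 genes, summed to 587 to 1252 in the libraries labelled Ko and 145 to 524 in Het libraries. Without Themis they overlapped, at 153 to 344 in the libraries labelled Ko and 85.9 to 444 in Het libraries. B cell markers, 6 genes, summed to 5057 to 6347 in the libraries labelled Ko and 2462 to 3624 in Het libraries, and without Cd79b they overlapped, at 392 to 839 in the libraries labelled Ko and 436 to 586 in Het libraries. Myeloid markers, 7 genes, summed to 1319 to 3724 in the libraries labelled Ko and 5431 to 54866 in Het libraries, and they did not overlap without Lyz2 either, at 778 to 825 in the libraries labelled Ko and 1566 to 3760 in Het libraries.

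Secretory cell markers, 8 genes, summed to 8422 to 103448 in the libraries labelled Ko and 131638 to 197080 in Het libraries. Most of the Het sum was Reg3g, an antimicrobial lectin gene, and without it the sums overlapped, at 6890 to 77547 in the libraries labelled Ko and 15884 to 40566 in Het libraries. Of the 8 genes, 5 were lower in every library labelled Ko, against 9.86% of all genes tested. Limma called 3 of the 8 lower, against 0.525% of all genes tested. Bpifa1 overlapped, at 4741, 74210 and 10981 in Ko1, Ko2 and Ko3, against 12151, 5364 and 14216 in Het1, Het2 and Het3. Ionocyte markers, 9 genes, summed to 242 to 525 in the libraries labelled Ko and 555 to 962 in Het libraries. Ascl3 was at 0 in all libraries labelled Ko and also in Het1 and Het3, and at 27.7 in Het2. Without Cftr the ionocyte sums overlapped, at 48.4 to 144 in the libraries labelled Ko and 141 to 961 in Het libraries.

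Ciliated cell markers, 7 genes, overlapped in their sum, which was mostly Dnah5. Without Dnah5 they summed to 106 to 273 in the libraries labelled Ko and 365 to 3322 in Het libraries. Limma called 2 of the 7 lower, against 0.525% of all genes tested, and the median log2 fold change of the 7 was -3.63. Sntn, a gene of cilia tips, was at 1.03, 1.04 and 1.43 in Ko1, Ko2 and Ko3, against 122, 1960 and 1317 in Het1, Het2 and Het3. Keratinocyte markers, 8 genes, overlapped too in a sum led by Krtdap, but not without it, at 2358 to 7531 in the libraries labelled Ko and 9100 to 15795 in Het libraries. Of the 8 genes, 3 (Ivl, Spink5 and Krt6b) were lower in every library labelled Ko, against 9.86% of all genes tested. The others overlapped. The keratin gene Krt6b was at 2.06, 2.07 and 1.43 in Ko1, Ko2 and Ko3, against 643, 570 and 167 in Het1, Het2 and Het3. Another keratin gene, Krt10, was at 2363, 1673 and 1557 in Ko1, Ko2 and Ko3, against 1294, 1654 and 1446 in Het1, Het2 and Het3. The summed markers of fibroblasts, endothelium and Aire-expressing thymic epithelium overlapped with and without their most abundant gene. Their median log2 fold changes were 0.75, -0.38 and -0.91. Cdh5 of the endothelium list was higher and Cd80 of the Aire list lower in every library labelled Ko, and the other genes overlapped. The part of these cells in the members' differences was not tested.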

How the data were processed

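RNA was sequenced from L1CAM-sorted thymic tuft cells. STAR 2.7.9a, the build GRCm39 and DESeq2 are named for the authors' processing, per the submitters' processing notes, with a read counter and annotation not given in the sources used here. In the deposited table each value is a signal, the reads of a gene over the library's size factor. Whole reads were recovered for 100% of values above 0 (tolerance 0.01 reads). The authors' deposited comparison table holds, per the file headers, log2 fold changes with their errors, a Wald score and p-values; their sign followed Ko over Het in 99.9% of well expressed genes (mean 50 or more).

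A table of gene names gave symbols for 55144 of 55471 identifiers. Genes with a mean of at least 10 were tested with limma 3.58.1 (R 4.3.3) after taking log2(value + 1) (eBayes with trend, two-sided), with Benjamini-Hochberg adjustment over 19416 genes at 0.05. Replicates differed beyond sampling noise (chi-square per degree of freedom 51.7 to 121 within groups). Alternatives were a pseudocount of 5, no filter, a mean of at least 50, TMM, edgeR 4.0.16, DESeq2 1.42.0 and leaving out each library. The scripts were tested on simulated data. The members and lists were chosen with earlier results of these data known. Genes were named by rule: all members, the 4 smallest p-values in each list, alpha subunits and Atp1b2, the nearest and the called neighbours of Fxyd7, Ikzf1, L1cam and the 5 patterns most like Fxyd7. Some genes that this rule names are not reported here. Sgk1, Atp4b, Slc4a10, Gramd1a, Hamp and markers were named after their values were seen. L1cam averaged 3670 ± 687 normalized counts in the libraries labelled Ko and 2745 ± 331 in Het libraries (SD, n = 3 each).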

Additional observations from a re-analysis of the deposited data

How the results depend on the processing

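The count of called genes was 158 with limma, 75 with edgeR and 1151 with DESeq2, and 0 to 116 when 1 library was left out (0 without Het3, 14 without Het2, 50 without Ko3, 56 without Ko2). Genes of the 4 sodium transport lists were called in 0 cases, but in 1 when genes averaging 50 or more were tested, in 4 with DESeq2 and in 0 to 1 without 1 library (1 without Het1, Nkain4). Neighbours of Fxyd7 were called in 0 cases, in 2 with DESeq2 and in 0 without any 1 library. Over the 12 alternatives the log2 fold change kept its sign in 7 of the 9 members, with Fxyd2 and Fxyd6 as exceptions. That of Fxyd7 was 6.36 with a pseudocount of 5, 8.76 with edgeR and 8.89 with DESeq2. That of Fxyd1 was 3.04 without Het2 and 5.93 without Het1, against 4.61 with all libraries. Those of Fxyd4 ran from -3.25 to -2.15 and of Fxyd3 from -0.92 to -0.60. No paired analysis was possible because the groups share no replicate number in the labels. In the least deep libraries, Ko3 and Het3, 3 reads correspond to 4.30 and 4.33 normalized counts, so lower levels are not resolved there.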
